A study of Mus musculus and Canis lupus familiaris and Equus caballus with 9 samples.

Results

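The genes described here are 10 mouse genes of dense-core secretory granules, set against NRSF peaks in a macrophage line. They were given by name and had been chosen with earlier results of these data known, so their counts are description only. They comprise the granins and granin-like precursors Chga, Chgb, Scg2, Scg3 and Vgf and the convertase chaperone Scg5. The others are the convertases Pcsk1 and Pcsk2 and the granule proteins Ptprn and Resp18. All 10 were found among the 21900 protein-coding genes that RefSeq annotates on GRCm38.p6 (mm10). Binding of NRSF, also named REST, was mapped by ChIP-seq, the sequencing of DNA that is immunoprecipitated with a protein, in RAW264.7 cells, an established macrophage line of BALB/c origin, at passages 13 to 15. There were 2 immunoprecipitated samples and 1 input DNA sample, all from this line, and the labels give no treatment and no knockout. The series, whose title concerns the evolution of the NRSF element, also covered a dog and a horse line. The deposited mouse result is 1 list of 2357 peaks for both immunoprecipitated samples, each peak 400 bp wide, with positions only. No value per replicate and no peak height exists in it, so replicate error could not be given, the read depth is unknown, and no test was made. A list of positions does not measure expression, so the macrophage identity of the cells was not checked against markers.

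NRSF represses neuronal and neuroendocrine genes in cells of other types. Its zinc fingers recognise an unusually long DNA element with a left and a right block of conserved bases. Dense-core granules store peptide hormones and neuropeptides until a calcium signal releases them. Granins are acidic proteins that condense in the granule core, convertases cut the stored precursors at pairs of basic residues, and granule membrane proteins take part in biogenesis and turnover.

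Of the 10 genes, 8 had a peak midpoint inside their annotated span or within 10 kb of either end, namely Chga, Chgb, Scg2, Vgf, Pcsk1, Pcsk2, Ptprn and Resp18. Among all protein-coding genes the share was 7.49% (1640 genes). Scg3 and Scg5 had none. In 5 of the 10 a midpoint lay inside the span itself, compared with 4.43% of all protein-coding genes. The 8 genes lay beside 10 distinct peaks: Chga, Vgf and Resp18 had 2 each, and 1 peak was shared by Ptprn and Resp18. Over all protein-coding genes, 221 had 2 or more peaks (1.01%). Among genes that had a peak, the share with 2 or more was 37.5% for the granule genes (3 of 8) and 13.5% for all protein-coding genes. Resp18 had 2 only through the peak shared with Ptprn. The median distance from the span to the closest peak midpoint was 4.5 bp over the 10 genes and 299 kb over all protein-coding genes. Measured from the closer gene end, it was 1.18 kb over the 10 genes and also 299 kb over all protein-coding genes. The median annotated span was 15.5 kb for the 10 genes and 17.1 kb for all protein-coding genes.

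**Figure D1:**
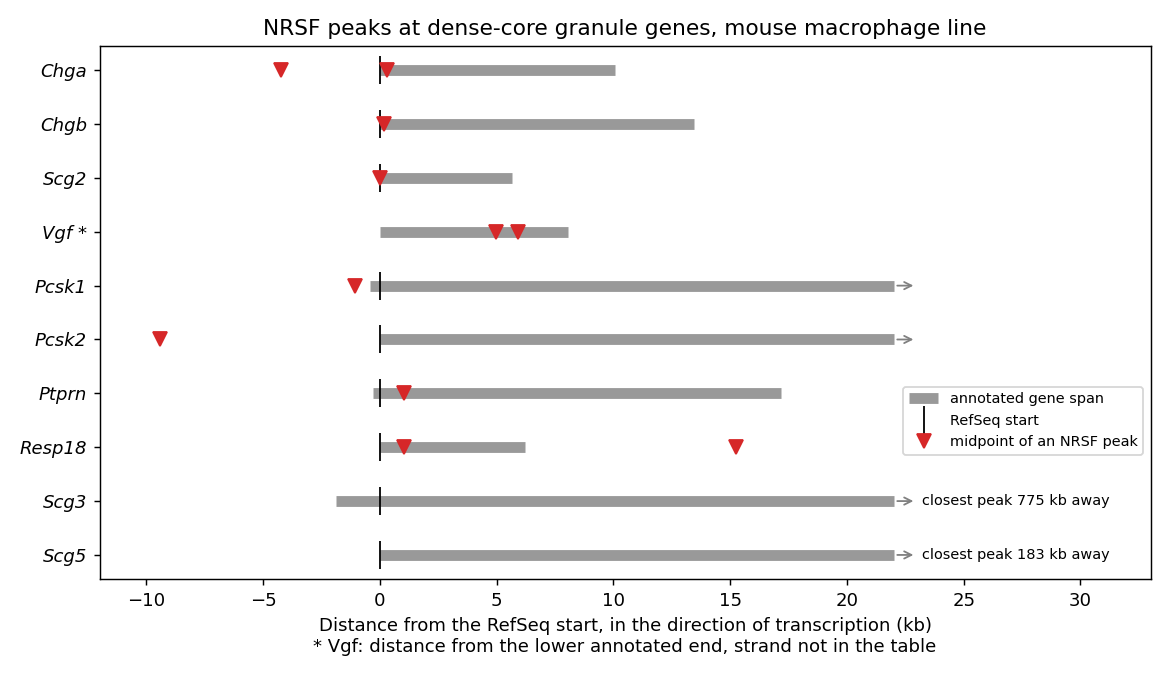
Positions of NRSF peak midpoints (red triangles) along the annotated spans (grey bars) of the 10 genes, as distance in kb from the RefSeq transcription start (black tick), or for Vgf, which has no start in the table, from the lower annotated end. Spans beyond 22 kb are cut at the arrow. Chga, Chgb, Scg2, Pcsk1, Ptprn and Resp18 each have a peak midpoint within 2 kb of a start. A further peak lies 4226 bp upstream of the Chga start, and another 15250 bp downstream of the Resp18 start. The Pcsk2 peak lies 9438 bp upstream, and Scg3 and Scg5 have their closest peak 775 and 183 kb from the span.

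The strand and transcription start were known for 9 of the 10 genes, from RefSeq promoter windows of 250 bases before to 50 bases after each start; Vgf had no entry. Within 500 bp of a start, 3 of the 9 had a peak midpoint (Chga, Chgb and Scg2), compared with 0.892% of the 17492 protein-coding genes that have an entry. Within 1 kb the count was 4 of 9, with Ptprn, compared with 1.35% of those genes. Within 2 kb it was 6 of 9, with Pcsk1 and Resp18, compared with 1.84% of those genes. Most of these 9 genes thus had a peak near the start.

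Scg2, on chromosome 1, encodes secretogranin II, the precursor of the neuropeptide secretoneurin. Its only peak, chr1:79439835-79440235 (mm10), had the midpoint 9 bp upstream of the start, the smallest start distance among the 9 genes. Of all protein-coding genes, 0.032% had a peak midpoint as close or closer to an annotated gene end. The next peak in the list was 702310 bp away, compared with a median of 177 kb between a mouse peak and its closest neighbour. The Scg2 peak was thus centred on the promoter, with no other peak near it.

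The Scg2 promoter held both blocks of the NRSF element exactly, but with no base between them. The search used the left block AGCACC and the right block GGACAG, in this order on either strand. In the canonical element 2 bases separate these letters. The Scg2 element ran from 79440028 to 79440039 on the plus strand, opposite to the gene, 2 to 13 bases upstream of the start, and its centre was 1.5 bp from the midpoint of the peak. The 250 bases upstream of the Scg2 start are shown because the peak covers the last 209 of them. They are written in the direction of transcription (chr1:79440027-79440276, minus strand, RefSeq GRCm38.p6), with the NRSF blocks in capitals near the end and, further upstream, the letters of a cyclic AMP response element in capitals.
Scg2 promoter: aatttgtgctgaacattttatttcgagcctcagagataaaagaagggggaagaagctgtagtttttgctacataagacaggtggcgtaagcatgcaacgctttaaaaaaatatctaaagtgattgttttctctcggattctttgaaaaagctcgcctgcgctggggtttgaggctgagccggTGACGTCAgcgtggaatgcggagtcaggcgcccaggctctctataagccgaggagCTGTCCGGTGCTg

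Exact blocks with no base between them were found in 3 of the 32851 RefSeq promoter windows (0.00913%). The other two belonged to Ptprn2 and to Gm39827, and neither site lay inside a peak. Ptprn2 encodes a granule membrane protein of the same family as Ptprn. Its site lay 7 to 18 bases downstream of its start, and its closest peak was 382650 bp from its span. Elements of release genes that lay inside a peak are printed for comparison of the spacing. Each is read with the left block first, with both blocks in capitals.
Scg2 (no base between the blocks, plus strand): tttcAGCACCGGACAGctcc
Ptprn2 (no base, minus strand, not in a peak): cttcAGCACCGGACAGcgcc
Snap25 (2 bases, plus strand): tttcAGCACCgcGGACAGcgat
Rph3a (2 bases, 1 mismatch in the left block, plus strand): agtcAGTACCacGGACAGcacc
Unc13a (8 bases, plus strand): cttcAGCACCgggggcgcGGACAGcgcc
The element centres lay 7.5 bp (Snap25), 16.5 bp (Rph3a) and 5.5 bp (Unc13a) from their peak midpoints. In Snap25 the element came from the promoter window of a long non-coding RNA gene, Gm32659, whose window lies in the Snap25 span. Another exact element with 2 bases in the same window lay 57.5 bp from the midpoint.

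Over all promoter windows, exact blocks lay inside peaks at 5 of the 13 spacings searched. With 2 bases between the blocks, 11 of 17 distinct sites were inside a peak (64.7%). With 7 to 9 bases, 7 of 18 were inside a peak (38.9%). An extended form of the element with more bases between the blocks is known, but the bounds of 7 and 9 were set with these counts known. With no base it was the Scg2 site, 1 of 3. At the other spacings up to 12 bases none of 13 sites was inside a peak. The grouping of spacings was made after the counts were seen, and this last group holds exactly the spacings without a site inside a peak. Its empty count was thus fixed by the grouping, and no limit on the share can be drawn from it. The canonical spacing of 2 bases was also searched with up to 2 mismatches over the 12 letters. None of the 9 granule genes with a promoter window had such an element there. Over all windows the share was 4.46%, so finding none in 9 genes does not set them apart. Among these 9 genes only the windows of Scg2 and Chgb overlapped a peak, and the sequence under the peaks of the other genes was not analysed here.

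**Figure D2:**
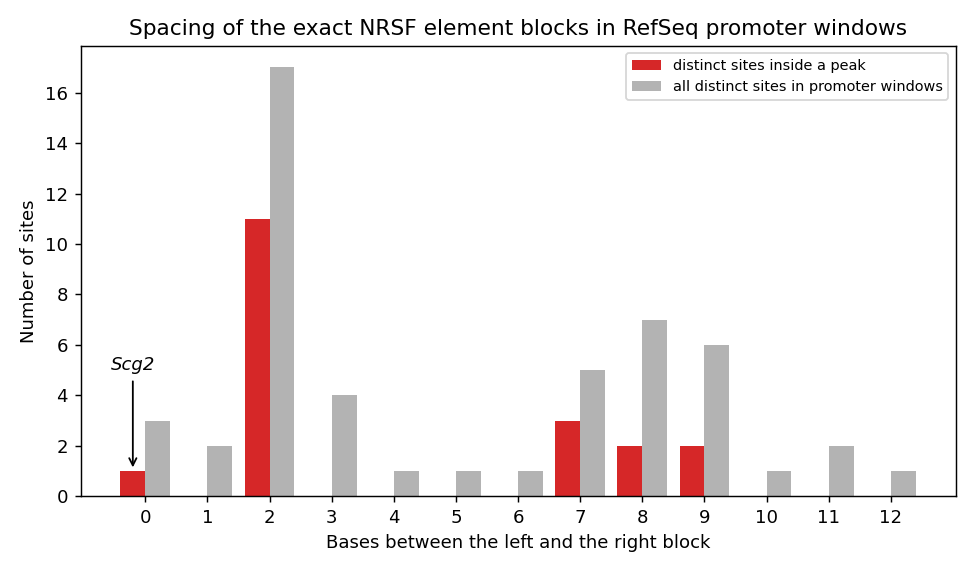
Number of distinct sites with both exact blocks in RefSeq promoter windows (grey) and of those inside a mouse NRSF peak (red), by the number of bases between the blocks. Sites inside peaks fall at 0, 2 and 7 to 9 bases, and the arrow marks the Scg2 site at 0.

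Chgb, on chromosome 2, encodes chromogranin B, a major granin of the granule core. Its peak, chr2:132781605-132782005, began 37 bp upstream of the start and had its midpoint 163 bp downstream of it. Chga, on chromosome 12, encodes chromogranin A, an acidic core protein that is cut into several bioactive peptides. It had a peak with its midpoint 314 bp downstream of the start (chr12:102555055-102555455), and another 4226 bp upstream (chr12:102550515-102550915). The pair lay 4540 bp apart by midpoint. Of all mouse peaks, 10.7% had another peak within 10 kb. No other annotated gene lay within 10 kb of any peak of Chga, Chgb or Scg2.

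The Chgb promoter shared 87 bases with the peak and the Scg2 promoter 259 of its 300. Only 0.441% of all promoter windows (145 of 32851) shared a base with any peak. The 250 bases upstream of the Chgb start (chr2:132781392-132781641, plus strand, RefSeq GRCm38.p6) are shown as the other promoter under a peak, which covers the last 37 of them, with the cyclic AMP response element letters in capitals.
Chgb promoter: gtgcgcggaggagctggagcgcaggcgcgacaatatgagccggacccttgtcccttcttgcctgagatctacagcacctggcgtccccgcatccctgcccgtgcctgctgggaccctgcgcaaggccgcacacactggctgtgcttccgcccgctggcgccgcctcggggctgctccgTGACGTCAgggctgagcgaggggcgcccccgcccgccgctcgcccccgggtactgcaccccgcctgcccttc

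The cyclic AMP response element, TGACGTCA, is the site of CREB-type activators and is known from granin promoters. These letters were searched after the promoter sequences had been seen. The full palindrome was present in 3 of the 9 genes with a window (Scg2, Chgb and Pcsk1), and in 1.79% of all windows. Its shorter form TGACGT, on either strand and contained in the full form, was present in 5 of 9, with Chga and Scg5 added, and in 7.51% of all windows. The full sites lay 61 to 68 bases (Scg2), 65 to 72 bases (Chgb) and 71 to 78 bases (Pcsk1) upstream of the start, and the shorter form in Chga 39 to 44 bases upstream. Only in Scg2 did the full site lie inside the peak. The letters contain CG, and the windows of Scg2, Chgb and Pcsk1 held 16, 31 and 13 such pairs (CpG). The median over all windows was 7, and the part of base composition in these shares was not tested. The Chga site (chr12:102554885-102554914, plus strand) and the Pcsk1 site (chr13:75089767-75089796, plus strand) are shown with 30 bases each, the matched letters in capitals.
Chga: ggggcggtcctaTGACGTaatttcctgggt
Pcsk1: tccaggtagatcTGACGTCAagagatggct

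Vgf, on chromosome 5, encodes a granin-like precursor first found as a gene induced by nerve growth factor. It had 2 peaks, chr5:137030085-137030485 and chr5:137031010-137031410, both with the midpoint inside the span of 137025301 to 137033351. Their midpoints were 4984 and 5909 bp from the lower annotated end, and 3066 and 2141 bp from the upper one. The 2 midpoints were 925 bp apart, the closest pair among the 10 genes, and 525 bases lay between the peaks. Of all mouse peaks, 3.18% had another peak within 1 kb. The neighbouring gene Ap1s1, a clathrin adaptor subunit, was also within reach, at 3783 and 4708 bp from its span, so the pair of peaks could be counted for either gene.

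Pcsk1 and Pcsk2 encode the convertases that cut prohormones inside granules, and both had a single peak upstream of the start. The Pcsk1 peak on chromosome 13 (chr13:75088585-75088985) had its midpoint 635 bp outside the annotated span and 1072 bp upstream of the RefSeq start. No other annotated gene was within 10 kb of it. The Pcsk2 peak on chromosome 2 (chr2:143536495-143536895) was much farther from its gene, 9438 bp upstream of the start and close to the 10 kb limit. It lay inside Pcsk2os1, a long non-coding RNA gene on the opposite strand whose span shares 1705 bases with that of Pcsk2. None of the 270152 bases of the Pcsk2 span, the longest of the 10, held a peak midpoint. Of all protein-coding genes, 1.15% had a peak midpoint as close to a gene end as Pcsk1, and 5.45% as close as Pcsk2.

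Ptprn and Resp18 are neighbours on chromosome 1, in the same orientation, with 7699 bases between their spans. Ptprn encodes a phosphatase-like protein of the granule membrane, and Resp18 a luminal granule protein related to the luminal part of Ptprn. The shared peak, chr1:75262965-75263365, lay inside Ptprn, with its midpoint 606 bp and 1043 bp downstream of the 2 RefSeq starts of Ptprn. The same midpoint was 9032 bp outside the Resp18 span, beyond its far end and 15250 bp from its start, so for Resp18 it counts only through the reach of 10 kb. Resp18 also had a peak of its own, chr1:75277185-75277585, inside the gene and 1030 bp downstream of its start. The midpoints of both peaks were 14220 bp apart. Both genes therefore had a peak within 2 kb downstream of a start, and without the shared peak Resp18 would still have been counted.

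Scg3 and Scg5 were the members without a peak in reach. Scg3, on chromosome 9, encodes secretogranin III, which carries chromogranin A to the granule membrane. Its closest peak was 774801 bp from its span, inside Onecut1, the gene of a transcription factor, and 75.0% of all protein-coding genes had a closer one. The nearest peak on the other side of Scg3 was 2792831 bp away. Scg5, on chromosome 2, encodes the chaperone that the convertase of Pcsk2 needs for its maturation. Its closest peak, 182954 bp away, lay inside Gjd2, the gene of a neuronal gap junction protein. For Scg5, 37.8% of protein-coding genes had a peak as close or closer, so its distance was below the median of all genes. Between the Pcsk2 peak at 9438 bp and the Scg5 distance of 182954 bp no member had its closest peak.

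**Figure D3:**
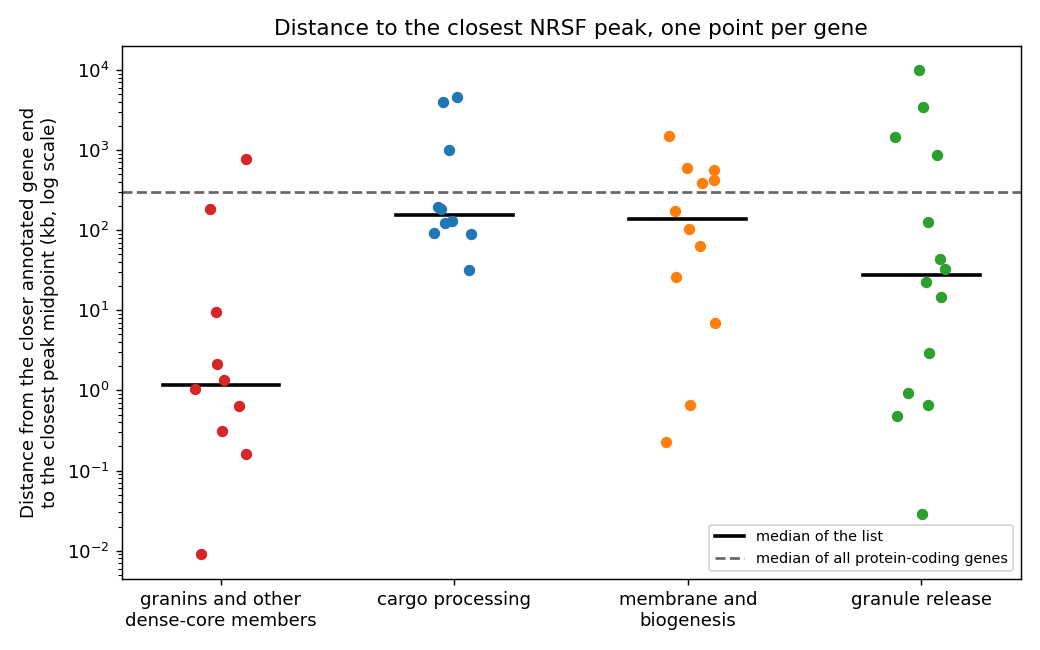
Distance from the closer annotated gene end to the closest NRSF peak midpoint, in kb on a log axis, with 1 point per gene, the median of each list (black bar) and the median of all protein-coding genes (dashed, 299 kb). The 10 granule genes have a median of 1.18 kb, with Scg5 and Scg3 at the top, and the lists of processing, membrane and release genes have medians of 156, 139 and 27.5 kb.

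Other genes of the same secretory route, 36 in 3 lists, were counted in the same way, and 11 of them had a peak, against 7.49% of all protein-coding genes. The members of these lists had a median annotated span of 52.2 kb, above the 17.1 kb of all protein-coding genes. The part of span length in these counts was not tested.

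Of 10 genes of cargo processing, 1 had a peak, Cpe, the carboxypeptidase that trims basic residues left by the convertases. Its peak lay inside the gene, 31559 bp from the closer end. The other convertase genes in this list, Furin, Pcsk4, Pcsk5, Pcsk6 and Pcsk7, had none, with the closest peak 91284 to 1011131 bp from their spans. Pam, which amidates peptides in granules, had its closest peak 4548361 bp away. By distance, the peaks of Pcsk1 and Pcsk2, at 635 and 9438 bp, were closer than those of the 5 other convertase genes listed. Both the members and this list were chosen with earlier results of these data known, so this contrast is description only.

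Of 12 genes of granule membrane and biogenesis, 3 had a peak. Syt4, a synaptotagmin, had one 225 bp inside an annotated end. Slc18a1, a vesicular monoamine transporter, had one 663 bp inside an end and 161 bp outside the span of its neighbour Atp6v1b2. Hid1, which acts in granule formation, had one 6929 bp outside its span and 7186 bp outside that of its neighbour Cdr2l. Ptprn2 and the other monoamine transporter, Slc18a2, had none within 10 kb, with 382650 and 173203 bp to the closest peak.

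Of 14 genes of granule release, 7 had a peak. Unc13a, a priming factor, had the closest one, with its midpoint 12 bp downstream of the start. Rph3a, a Rab effector, had 2 peaks, one of them 102 bp upstream of one of its 3 starts. Snap25, a SNARE protein of the plasma membrane, had one 916 bp inside an end. Cadps, which primes dense-core granules for release, had 3 peaks, 916 bp upstream of the start and deep inside its span of 450780 bp. The peaks of Syt7 and Syt9, calcium sensors of release, lay inside the genes at 14513 and 22636 bp from the closer end. The peak counted for Baiap3, a regulator of granule release, lay 2894 bp outside its span, beyond the far end and 16599 bp from its start. It lay inside another gene, Gnptg, and 376 bp outside the span of Tsr3. None of the Rab genes listed (Rab3a, Rab3d, Rab27a and Rab27b) had a peak in reach.

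**Figure D4:**
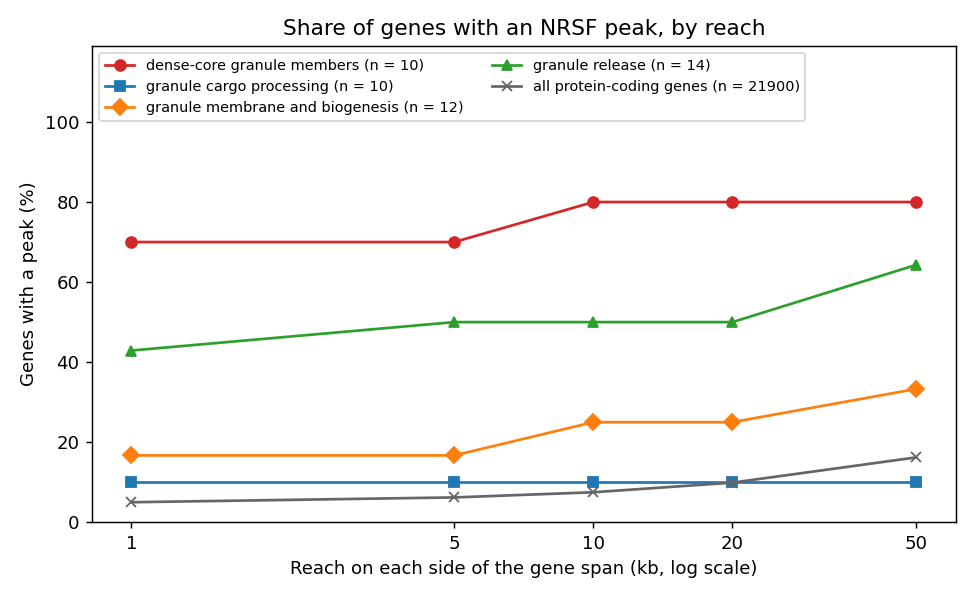
Share of genes with an NRSF peak midpoint inside the span or within a reach of 1, 5, 10, 20 or 50 kb, for the 10 granule genes, the 3 wider lists and all protein-coding genes. The granule genes stand at 70.0% from 1 kb and 80.0% from 10 kb, release genes at 50% and all protein-coding genes at 7.49% for 10 kb, and the processing list stays at 10.0% throughout.

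With a reach of 1 kb the 10 granule genes still had 7 with a peak, against 5.0% of all protein-coding genes, and the gene that dropped out was Pcsk2. No further member was gained at 20 or 50 kb, where the share of all protein-coding genes was 9.89% and 16.2%. When only the gene ends within 10 kb counted, the same 8 genes had a peak, against 5.63% of all protein-coding genes. The granule genes with a peak were therefore the same from 10 to 50 kb, while the share over all genes went up with the reach.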

How the data were processed

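Positions of NRSF peaks in mouse RAW264.7 cells were analysed. Per the labels, 1 list belongs to both immunoprecipitated samples, and the cells were fixed with 1% formaldehyde. The submitters' processing notes name Bowtie 0.12.8 and MACS 1.4.2 and the builds GRCm38 and mm10; roles, threshold and the joining of replicates are not given there. The values the authors deposited are start and end positions; whether they count from 0 or 1 is not stated. The dog, horse and human lists were not used here.

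Gene spans and promoter windows came from RefSeq tables of GRCm38.p6, with no exons, so exonic or intronic position is not given. A gene had a peak when a midpoint lay in its span or within 10 kb. All 10 members were named; of 36 genes in 3 wider lists, those with a peak were named, and further genes were picked with their values known. The members and lists were chosen with earlier results of these data known, so counts are set beside all protein-coding genes with no test. Element searches were exact unless stated. The counting was tested on simulated data. Python 3.11.15, numpy 2.4.6, pandas 2.3.3, scipy 1.17.1 and matplotlib 3.10.9 were used.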

Additional observations from a re-analysis of the deposited data

How the results depend on the processing

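Of 39 alternative values, 29 stayed within the margin. It was 1.5 times for counts and medians, and the exact 95% interval (7.14 to 7.85%) for the share of all protein-coding genes. That share is a complete count over the annotated genes, so the interval served only as a margin and measures no spread. The counts of granule genes with a peak (8), of their peaks and of wider-list genes stayed within 1.5 times under each reach. They also did so with gene ends only, any base of a peak counted, or starts moved by 1 base. With 10 genes in all, the count of 8 could leave this margin only by falling, so a wider reach could not move it out. The margins for counts and for the share differ in width, so their outcomes are not comparable. The share of all protein-coding genes, 7.49%, was 5.0% at 1 kb, 6.2% at 5 kb, 9.89% at 20 kb, 16.2% at 50 kb and 5.63% with gene ends only; it was 5.01% over all annotated genes. These follow from the wider or narrower reach and from the other gene set. The median span distance of the granule genes, 4.5 bp, became 0 bp with the closest base of a peak and 9 bp with Ptprn and Resp18 counted once. The number of granule genes with an element in the promoter, 0, became 1 with 3 mismatches (Resp18, with 31.4% of all windows matching) and 1 with exact blocks 0 to 12 bases apart (Scg2), an alternative chosen after the data were seen. No paired analysis was possible because the 1 list joins both replicates; for the same reason no replicate could be left out, and without a peak score no stricter threshold could be set.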

Other observations

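Promoter windows of the granule genes differed widely in base composition. GC content was highest for Pcsk2 (76.3%, with 36 CpG) and Chgb (72.7%, with 31 CpG), and lowest for Pcsk1 (49.3%, with 13 CpG) and Scg2 (50.7%, with 16 CpG), compared with a median of 52.7% and 7 CpG over all windows. By GC content, the 3 genes with a peak midpoint within 500 bp of a start were spread over the range. Chgb stood near the top, Scg2 near the bottom and Chga between them at 62.0%. By CpG count, every window of the granule genes was above the median of all windows except that of Resp18, which had the fewest, 5.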
